A study of Homo sapiens with 4 samples.

Results

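The lysosome list held 35 genes, found by gene symbol among 18650 loci derived from the deposited table and described in all 4 RNA-seq libraries. It comprised 16 genes of the proton pump, 6 of the lysosomal membrane, 10 of lysosomal hydrolases and their activators, and 3 for the sorting receptors and progranulin. Established human lines were used. HT-29 derives from a colorectal adenocarcinoma, and NCM460 is a colon epithelial line that served as the normal cells of the study. Each line was grown untreated (control) and with 100 μg/mL sturgeon chondroitin sulfate (SCS, a cartilage polysaccharide) for 24 h. The sources give different serum contents for the NCM460 medium, and by one of them it differed from that of HT-29, so that line and serum cannot be told apart in comparisons between the lines. There was 1 library per condition, so no difference between conditions has a replicate check and no p-value is given for SCS against control within a line.

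Lysosomes are acidic compartments in which cells break down proteins, lipids, glycogen and glycosaminoglycans, the class of sugar chains to which chondroitin sulfate belongs. The acid is made by the vacuolar proton pump, in which a cytosolic sector (V1) burns ATP and turns a ring in a membrane sector (V0) that carries protons across. The enzymes inside are delivered largely by mannose 6-phosphate receptors, and many lysosome genes are known targets of TFEB and TFE3, transcription factors that bind sites with a CACGTG core.

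The libraries held 1156568 to 1654764 fragments. The mitochondrial genome took 35.8% of them in the HT-29 control and 13.8% with SCS, and 62.3% and 46.3% in NCM460, which left 507692 to 1383424 nuclear fragments. The counting interval was narrower in HT-29 than in NCM460 for 33 of the 35 genes, all but MCOLN1 and GAA. Of 12 colon epithelium markers, 6 to 9 had fragments in a library, with CDX1 and TFF3 at 0 in every library. KRT20, VIL1, LGALS4 and CDH17 were also at 0 in both NCM460 libraries. In HT-29, CDX2 was at 0 in both libraries and CDH17 at 0 with SCS, whereas CDX2 had fragments in both NCM460 libraries. The summed level of this list went from 6526 to 3535 CPM (fragments relative to the library size, scaled by TMM) with SCS in HT-29 and from 4346 to 2659 CPM in NCM460, and its part in the results below was not tested. The 6 mesenchymal or fibroblast markers summed to 5.38 and 6.66 CPM in HT-29 without and with SCS. In NCM460 they summed to 36.0 and 37.9 CPM, and COL1A2 and COL3A1 were at 0 in all libraries. Of 6 leukocyte and macrophage markers, 2 or 3 had fragments in a library, with PTPRC, CD14 and TYROBP at 0 in all libraries. The list summed to 613 and 391.6 CPM in HT-29 without and with SCS and to 611 and 582 CPM in NCM460. CD68, itself a lysosomal membrane protein, had 650 and 589 fragments in HT-29 and 473 and 624 in NCM460, and LYZ had 603 and 352 in HT-29 and 0 in NCM460. These fragments are not scaled to library size, unlike the CPM sums of the list. The part of these markers in the results was not tested. In RNA of a whole culture, a change in RNA per cell and a change in the share of cells that express a gene cannot be told apart.

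All 35 genes had fragments in every library and passed the filter of 1 CPM in each comparison. A change was called when it exceeded 1.5-fold and the 95% exact interval of the fragments excluded no change. The intervals cover counting error only, and log2 fold changes were computed with a prior count of 2. The genes ATP6V0C, ATP6V0A1, MCOLN1 and CLN3 share their table values with overlapping neighbours, and their values are uncertain.

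Promoter stretches with the CACGTG core are shown for 6 genes, because 4 of them were called higher in HT-29 with SCS (GAA, ATP6V1G1, NEU1 and ATP6V0B) and the other two (LAMP1 and MCOLN1) were not. Capitals mark CACGTG. The stretches end at or before the start site and come from RefSeq on GRCh38.p14, written 5′ to 3′ on the strand of the gene. They lie at chr17:80101483-80101577 on the plus strand for GAA, chr9:114587689-114587738 on the plus strand for ATP6V1G1, chr6:31862920-31862969 on the minus strand for NEU1, chr1:43974881-43974948 on the plus strand for ATP6V0B, chr13:113297025-113297238 on the plus strand for LAMP1 and chr19:7522561-7522623 on the plus strand for MCOLN1.
GAA: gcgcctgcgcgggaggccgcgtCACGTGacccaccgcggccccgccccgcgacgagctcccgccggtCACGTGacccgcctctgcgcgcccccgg
ATP6V1G1: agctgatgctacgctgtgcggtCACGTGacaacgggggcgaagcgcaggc
NEU1: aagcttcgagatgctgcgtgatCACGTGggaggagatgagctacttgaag
ATP6V0B: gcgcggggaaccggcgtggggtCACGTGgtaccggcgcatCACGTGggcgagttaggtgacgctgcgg
LAMP1: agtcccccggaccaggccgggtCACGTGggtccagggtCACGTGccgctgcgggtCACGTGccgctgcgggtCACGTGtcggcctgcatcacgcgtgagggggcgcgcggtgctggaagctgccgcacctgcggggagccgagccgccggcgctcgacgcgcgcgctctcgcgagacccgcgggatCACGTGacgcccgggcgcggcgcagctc
MCOLN1: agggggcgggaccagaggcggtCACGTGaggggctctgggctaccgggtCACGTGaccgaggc

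The GAA stretch holds 2 matches, the first starting 76 bases before the start site, and both are flanked to give the longer palindrome GTCACGTGAC. The ATP6V1G1 stretch holds 1 such palindrome, 58 bases before the start site by its core. LAMP1 holds 5 matches of the core and MCOLN1 2. In MCOLN1, which was not called, 2 matches extend to TCACGTGA and 1 of them to GTCACGTGAC, and in LAMP1 1 extends to TCACGTGA. In NEU1 and ATP6V0B, which were called higher, no match extends to either longer form. Over all 27 of the 35 genes with a promoter in the RefSeq table (windows from 250 bases before to 50 bases after the start site), CACGTG was found in 11, TCACGTGA in 7 and GTCACGTGAC in 4. Each longer motif contains the shorter ones, all 3 read the same on both strands, and they occur in at least 1 promoter of 8.77%, 1.18% and 0.421% of the 27305 genes of the table, or in 7.26%, 0.980% and 0.353% of its 35116 promoters. A match is only a description of the letters. Of the 11 genes with CACGTG, 4 were called higher in HT-29 with SCS and none lower, with a median log2 fold change of 0.35. Of the 16 without it, 4 were called higher and 1 lower, with a median of 0.37. The genes with CACGTG whose stretches are not shown were ATP6V0D1, CD63, CLN3, IGF2R and M6PR. None of them was called in HT-29, and IGF2R also holds GTCACGTGAC.

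In HT-29 cells, SCS was followed by higher levels of several lysosomal enzymes and pump subunits. TPP1, GAA, LIPA, NEU1 and PSAP of the hydrolase group were called higher and PPT1 lower, and 6 of the 16 pump genes were called higher and 1 lower. In all, 26 of the 35 genes had a higher value with SCS, 12 were called higher and 2 lower, and the median log2 fold change was 0.42. Over all 12168 loci compared in HT-29, 16.8% were called higher and 14.8% lower, with a median of 0.07. A floor of 5 CPM on the mean left 9356 loci, 34 of the 35 genes among them, and 19.4% of these loci were called higher. The share called higher among the genes of the list was thus above this background, and the share called lower was below it. After the GC trend was subtracted, 12 genes were again called higher and 2 lower, against 14.4% and 16.0% of loci.

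**Figure D1:**
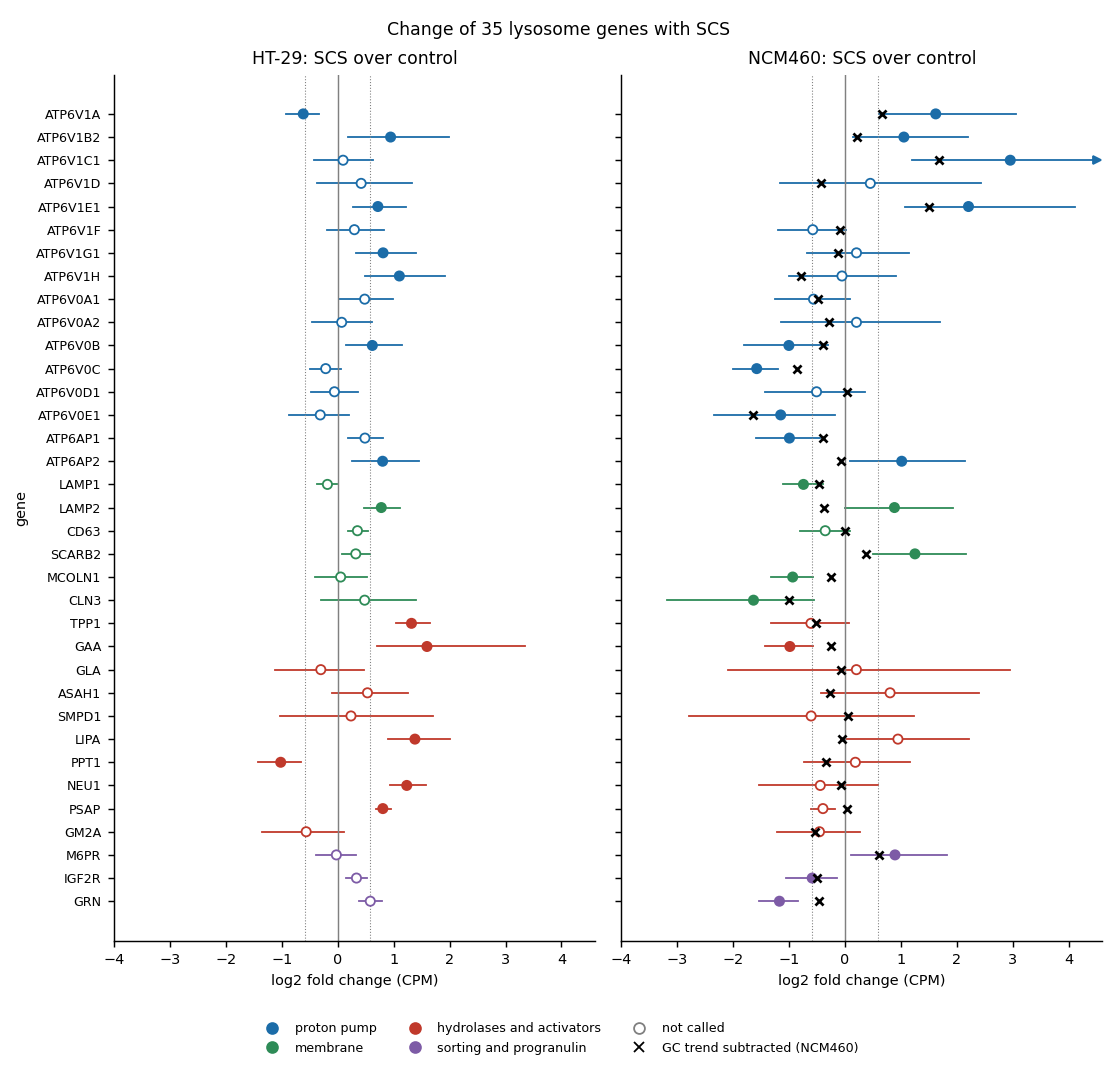
Log2 fold change of CPM with SCS over control (x axis) for the 35 genes (y axis) in HT-29 (left) and NCM460 (right), with points coloured by group, open where not called, bars for the 95% counting interval (an arrow where it runs past the axis), dotted lines at 1.5-fold and crosses for NCM460 values after the GC trend was subtracted. TPP1, GAA, LIPA and NEU1 sit farthest right in HT-29, and 15 of the 18 NCM460 calls lose their call at the crosses.

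The hydrolases and activators had the highest median change of the 4 groups in HT-29, 0.67 on the log2 scale. TPP1, a peptidase that removes tripeptides from proteins in the lysosome (chromosome 11, 6612763 to 6619461 on GRCh38), had 121 fragments in the HT-29 control and 359 with SCS. Its log2 fold change was 1.32 (95% interval 1.04 to 1.65). In NCM460 it had 39 and 35 fragments and was not called.

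NEU1, the sialidase that removes terminal sialic acids, had 110 fragments in the HT-29 control and 308 with SCS, which gave a log2 change of 1.23 (0.93 to 1.58). Its row in the table lies on an alternate haplotype sequence of the MHC and not on the primary chromosome 6, from which its promoter above was taken. In NCM460 it had 17 fragments in each library. LIPA, the acid lipase that splits cholesteryl esters and triglycerides, had 37 and 118 fragments in HT-29 and changed by 1.38 (0.90 to 2.02). Both genes were more than 2-fold higher with SCS in HT-29 on the CPM scale, also with the GC trend subtracted. LIPA had 10 and 28 fragments in NCM460, where its change of 0.94 (-0.07 to 2.22) was not called and was -0.05 after the GC trend was subtracted.

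PSAP, the precursor of the saposins that present sphingolipids to their enzymes, was the most abundant gene of the group. It had 677 fragments in the HT-29 control and 1393 with SCS and changed by 0.81 on the log2 scale (0.68 to 0.94), the narrowest interval of the list. In NCM460 it had 348 and 367 fragments, and its change of -0.40 (-0.61 to -0.18) did not reach 1.5-fold. PSAP made up 55.5% of the summed level of the 10 genes in the HT-29 control and 57.5% with SCS, as that sum went from 596 to 1009 CPM.

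GAA, the acid glucosidase that degrades glycogen (chromosome 17, 80101556 to 80119879), had 7 fragments in the HT-29 control and 31 with SCS. Its log2 fold change was 1.60, with an interval of 0.70 to 3.34 that reflects the low count. With SCS it was still the fourth lowest of the 35 genes in HT-29 by CPM. PPT1, which removes palmitate from proteins, went the other way, with 158 fragments in untreated HT-29 and 90 after SCS, and its log2 change was -1.02 (-1.43 to -0.66). The remaining members of the group, GLA, ASAH1, SMPD1 and GM2A, were not called in HT-29. ASAH1, the acid ceramidase, had 31 and 54 fragments, and GM2A, the activator of ganglioside breakdown, 39 and 30, and their intervals (-0.10 to 1.26 and -1.35 to 0.11) included no change. SMPD1, the acid sphingomyelinase, had 9 and 13 fragments, too few to show a change near 1.5-fold (interval -1.04 to 1.70).

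In the proton pump the median log2 fold change in HT-29 was 0.45, against 0.07 for all loci. The subunits of the V1 sector and of the V0 sector had medians of 0.57 and 0.01. Of the 8 V1 genes 4 were called higher and 1 lower, and of the 6 V0 genes 1 was called higher. No test of the difference between the sectors was made.

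ATP6V1H, a regulatory subunit of V1, had 24 fragments in the HT-29 control and 64 with SCS, the largest change of the pump genes at 1.10 on the log2 scale (0.49 to 1.92). ATP6V1B2, the B subunit that shares the nucleotide-binding head with A, had 16 and 39 fragments, a change of 0.95 (0.18 to 1.99). Of the peripheral stalk subunits, ATP6V1G1 had 45 and 95 fragments and a change of 0.81 (0.32 to 1.39). These 3 genes were called higher. ATP6V1E1, its partner in the stalk, had 58 and 114 fragments, a change of 0.72 (0.27 to 1.22), also called higher.

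The catalytic subunit moved the other way in HT-29. ATP6V1A, which hydrolyses the ATP, had 218 fragments in the HT-29 control and 166 with SCS and a change of -0.62 on the log2 scale (-0.93 to -0.33). It took 43.9% of the summed level of the 8 V1 genes in the control and 24.9% with SCS. With libraries scaled by total counts only, ATP6V1A was no longer called. ATP6V1C1, ATP6V1D and ATP6V1F, subunits of the sector interface and the central stalk, had changes of 0.10, 0.42 and 0.30 that were not called.

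In the membrane sector, ATP6V0B, a subunit of the proteolipid ring, had 54 fragments in the HT-29 control and 99 with SCS, a change of 0.62 (0.15 to 1.15) that lay just above the 1.5-fold line. It lost its call when an expression trend was subtracted and when overlapping genes were not merged. The other V0 genes ranged from -0.31 for ATP6V0E1 to 0.48 for ATP6V0A1. ATP6AP2, an accessory protein also known as the prorenin receptor, had 36 and 76 fragments, a change of 0.80 (0.26 to 1.46), and was called higher. ATP6AP1, the second accessory protein, had 139 and 230 fragments, and its change of 0.49 (0.18 to 0.81) stayed under 1.5-fold with an interval above 0.

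Among the membrane proteins, 1 of 6 was called in HT-29. LAMP2, an abundant glycoprotein of the lysosomal membrane that also takes part in chaperone-mediated autophagy, had 120 fragments in untreated HT-29 cells and 244 after SCS, a log2 change of 0.78 (0.47 to 1.12). With the GC trend subtracted it was 0.52 and not called. LAMP1, its close relative, had 515 and 532 fragments, a change of -0.18 (-0.36 to -0.01) that was not called, so the 2 LAMP genes had intervals that did not overlap in HT-29. CD63, a tetraspanin of late endosomes, had 429 and 644 fragments and a change of 0.35 (0.18 to 0.53), also not called. SCARB2, the carrier of glucocerebrosidase, MCOLN1, a cation channel, and CLN3, a membrane protein altered in a juvenile storage disease, had changes of 0.32, 0.05 and 0.48, and none was called.

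The sorting receptors were not called in HT-29. M6PR, the cation-dependent mannose 6-phosphate receptor, had 123 and 142 fragments, a change of -0.02 (-0.38 to 0.34). IGF2R, the cation-independent receptor, had 366 and 543, a change of 0.33 (0.14 to 0.53). GRN, progranulin, a secreted and lysosomal glycoprotein, had 296 and 522 fragments, and its change of 0.58 (0.38 to 0.80) lay just under the line of 1.5-fold and passed it with the GC trend subtracted. Of the 14 calls in HT-29, 11 held under all 10 alternatives tried, and the others were ATP6V0B, ATP6V1A and LAMP2.

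**Figure D2:**
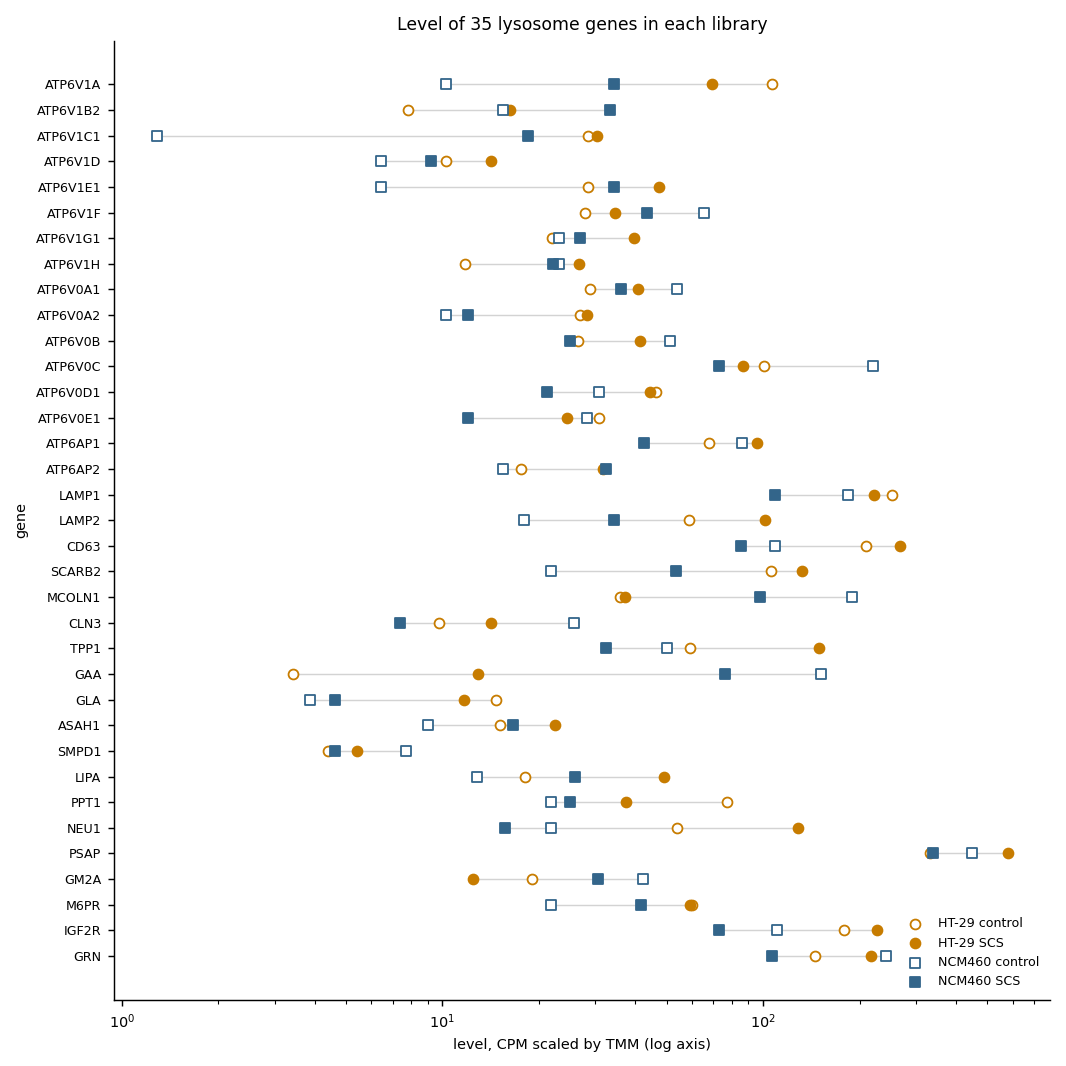
Level of each of the 35 genes (y axis) in CPM scaled by TMM, on a log axis (x axis), with circles for HT-29, squares for NCM460, open symbols for control and filled symbols for SCS, 1 library each. GAA and ATP6V1C1 span the widest range across libraries, GAA because of its low HT-29 values of 7 and 31 fragments and ATP6V1C1 because of 1 fragment in the NCM460 control.

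In NCM460 cells, the genes moved in both directions, and their changes ran with the GC content of the transcripts. Of the 35 genes 15 had a higher value with SCS and 20 a lower value, 8 were called higher and 10 lower, and the median log2 fold change was -0.40. Over all 12657 loci compared, 15.4% were called higher and 13.8% lower, with a median of 0.03. The library pair showed a steep GC trend. Across 12584 loci the log2 fold change had a Spearman correlation of -0.64 with transcript GC content, and across the 35 genes, which range from 39.1% GC (ATP6V1C1) to 64.6% GC (GAA), it was -0.85. In HT-29 the same correlations were -0.13 and -0.04. These correlations are descriptions across genes that share the same 2 libraries, and genes are not independent replicates.

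**Figure D3:**
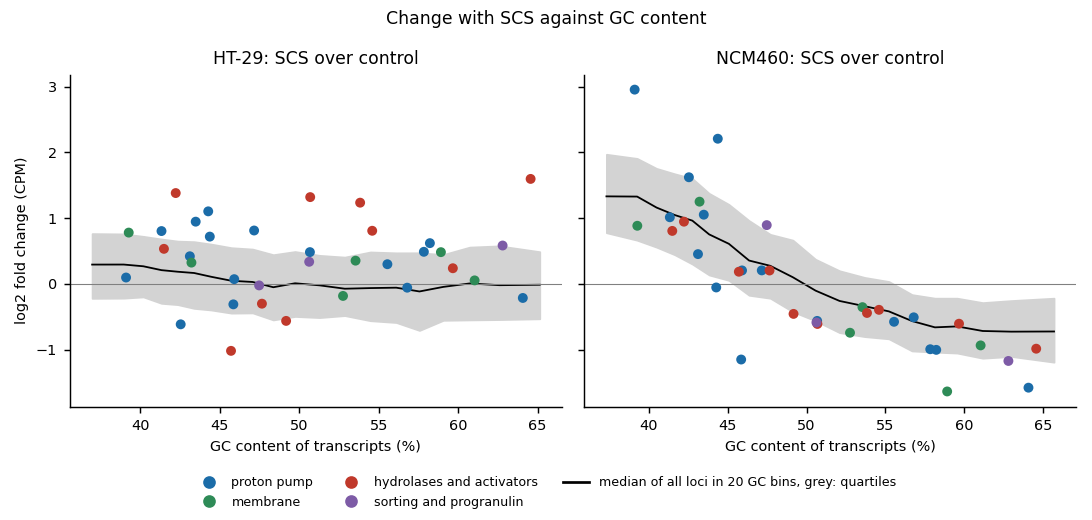
Log2 fold change of CPM with SCS over control (y axis) against the GC content of the transcripts in percent (x axis) in HT-29 (left) and NCM460 (right), with the 35 genes as points coloured by group, and a black line for the median and a grey band for the quartiles of all loci in 20 GC bins. In NCM460 the points and the median of all loci fall together as GC content rises, while in HT-29 the line is nearly flat. In HT-29, TPP1, NEU1, LIPA and GAA lie above the band, as do PSAP and several pump genes. Genes below the band there include PPT1 and ATP6V1A.

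With the GC trend of all loci subtracted, 1 of the 35 genes was called higher and 2 lower in NCM460. By the same rule 5.25% of all loci were called higher and 5.85% lower, so these counts of calls were near the background. The median of the 35 genes was -0.26, against -0.007 for all loci. A lower value with SCS was seen for 26 of the 35 genes and for 6344 of 12584 loci. Across the 35 genes the Spearman correlation with GC content was then -0.29. The 3 genes were ATP6V1E1, ATP6V0C and ATP6V0E1, all of the proton pump.

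ATP6V1E1 (chromosome 22, 17592136 to 17628818) had 5 fragments in the NCM460 control and 37 with SCS. Its log2 fold change was 2.21 (1.06 to 4.12), and 1.49 (0.35 to 3.41) with the GC trend subtracted. It was the only 1 of the 35 genes called higher in both lines after that subtraction, and its call held in both lines under every alternative. ATP6V0C, the main subunit of the proteolipid ring, had 172 and 79 fragments in NCM460, a change of -1.58, and of -0.86 (-1.28 to -0.48) with the GC trend subtracted. Its locus also holds TBC1D24 and AMDHD2, so the fragments cannot be assigned to 1 gene. ATP6V0E1, a small membrane subunit, had 22 and 13 fragments, a change of -1.15 (-2.34 to -0.18), which was -1.65 (-2.85 to -0.68) after the GC trend was subtracted and lost its call with total counts only.

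The V1 and V0 sectors had medians of 0.75 and -0.78 in NCM460, with median transcript GC contents of 43.9% and 53.7%. After GC subtraction they stood at 0.06 and -0.43. ATP6V1A had 8 and 37 fragments in NCM460, a change of 1.62 (0.61 to 3.05) that became 0.66 (-0.34 to 2.09) and was then not called. ATP6V1B2 had 12 and 36 fragments, a change of 1.05 that became 0.21. ATP6V1C1 had 1 fragment in the NCM460 control and 20 with SCS, so its ratio has a counting interval of 1.20 to 9.22 on the log2 scale, and it was not called after the GC trend was subtracted. Among GC-rich pump genes, ATP6V0B had 40 and 27 fragments and ATP6AP1 67 and 46, with changes of -1.004 and -0.995 before and -0.39 and -0.40 after subtraction.

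Outside the pump, every NCM460 call was lost with the GC trend subtracted. The genes called lower before it were LAMP1, MCOLN1, CLN3, GAA, IGF2R and GRN, and those called higher LAMP2, SCARB2 and M6PR. GRN had 188 fragments in the NCM460 control and 115 with SCS, a change of -1.17 that became -0.47 (-0.83 to -0.14). LAMP1 had 143 and 118, a change of -0.74 that became -0.46 (-0.84 to -0.11), and IGF2R had 86 and 79, a change of -0.59 that became -0.51 (-0.98 to -0.06). These 3 genes kept intervals below 0 without reaching 1.5-fold.

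MCOLN1 had 147 and 106 fragments in NCM460 and a change of -0.25 after subtraction, and GAA had 118 and 82 and a change of -0.26. CLN3 had 20 and 8 fragments and a change of -0.997 after subtraction (-2.55 to 0.09), an interval that included 0. SCARB2 went from 17 to 58 fragments and LAMP2 from 14 to 37, and after subtraction their changes were 0.38 and -0.38. M6PR had 17 and 45 fragments and a change of 0.60 (-0.20 to 1.54). The hydrolase group had a median of -0.42 before and -0.17 after subtraction, and GLA, with 3 and 5 fragments, had an interval too wide to show a change.

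**Figure D4:**
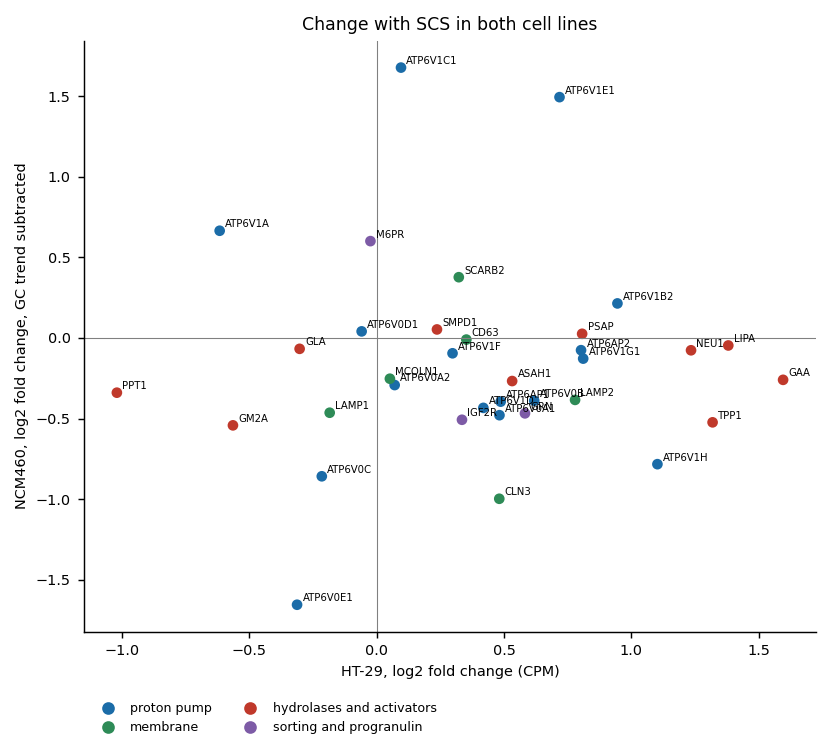
Log2 fold change of CPM with SCS in HT-29 (x axis) against that in NCM460 after subtraction of the GC trend (y axis) for the 35 genes, coloured by group, with 1 library per condition. ATP6V1E1 is high on both axes at 0.72 and 1.49, whereas TPP1, LIPA, NEU1 and GAA are high in HT-29 and lie below 0 in NCM460, where none was called.

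Side by side, ATP6V1B2, ATP6V1E1, ATP6AP2 and LAMP2 were called higher in both lines before GC subtraction, 3 genes were called in opposite directions (ATP6V0B, GAA and ATP6V1A) and 10 in neither line. After subtraction in both lines, ATP6V1E1 was called higher in both, no gene was called in opposite directions and 19 were called in neither. The share of all loci in these classes was not counted, so the counts have no background and are not read as particular to the list. A model of a change shared by both lines could be fitted across the 4 libraries with 1 residual degree of freedom. By edgeR's quasi-likelihood test it called 9 of 12942 loci, which is 0.0695%, at an adjusted p under 0.05. It called 0 of the 35 genes, with 1 (ATP6V1E1, adjusted p = 0.943) at an unadjusted p under 0.05. Over the other edgeR settings the lowest adjusted p of any of the 35 genes was 0.435 when scaled by total counts alone and 0.790 with a GC offset. DESeq2 also called 0, with 0 at an unadjusted p under 0.05, and gave no adjusted p for 24 of them. That test takes the disagreement between the lines as error, so it does not show that the lines differ or that the genes did not change.

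The levels per transcript length before treatment differed widely among the genes. In FPKM (fragments per kilobase relative to the library size, as deposited), CD63 was highest in the HT-29 control at 273, followed by PSAP at 114, LAMP1 at 91.4, ATP6V0C at 90.0 and GRN at 80.9, and GAA was lowest at 0.926. In the NCM460 control, PSAP stood at 200, ATP6V0C at 194, CD63 at 172, GRN at 130 and MCOLN1 at 115, and ATP6V1C1 was lowest at 1.02. With 1 library each, the order of neighbours has no spread to be judged against. The deposited FPKM and the CPM went in opposite directions with SCS for 3 genes in HT-29 (ATP6V0A2, ATP6V1C1 and SMPD1) and for 6 in NCM460. The widest gap in HT-29 was that of ATP6V1C1, at 11.1 and 6.88 FPKM but 28.3 and 30.4 CPM. None of the 3 was called in HT-29. In NCM460 the 6 were ATP6V0A2, ATP6V1D, ATP6V1G1, ASAH1, PPT1 and M6PR. Of these only M6PR was called, as higher, at 21.8 and 41.6 CPM but 21.5 and 16.7 FPKM. In the alternative that used FPKM, changes were shifted to the median of all loci in the main setting, and M6PR lost its call.

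Between the untreated lines, 12 of the 35 genes were called higher in HT-29 and 10 lower, where 25.3% and 23.1% of all 12691 loci were called. With the GC trend subtracted, which had a Spearman correlation of -0.52 over all loci, 11 were called higher and 7 lower, against 18.6% and 18.8% of loci. The control libraries used here also enter the SCS comparisons. GAA differed most, with 7 fragments in HT-29 and 118 in NCM460, a log2 difference of -5.03 (HT-29 minus NCM460), or -3.96 with the GC trend subtracted. MCOLN1 was also lower in HT-29, with 73 and 147 fragments and a difference of -2.36, or -1.49 after subtraction.

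Several genes were called higher in untreated HT-29 under every alternative tried. ATP6V1A had 218 fragments in HT-29 and 8 in NCM460, a difference of 3.22, or 2.12 with the GC trend subtracted. SCARB2 had 216 and 17 fragments (2.21 and 1.20), PPT1 158 and 17 (1.76 and 1.18), and NEU1 110 and 17 (1.25 and 1.62). M6PR had 123 and 17 fragments, a difference of 1.41, and CD63 429 and 85, a difference of 0.93. Line and library cannot be told apart in this comparison.

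Other lysosome genes came from lists of 72 genes chosen by their role, of which 65 had enough fragments in HT-29. There 15 were called higher and 6 lower, with a median log2 fold change of 0.20, where 16.8% and 14.8% of all loci were called. After GC subtraction 8 were called higher and 6 lower in HT-29, against 14.4% and 16.0% of loci, so the surplus of higher calls was not kept. In NCM460 after GC subtraction 3 of 65 compared were called higher and 4 lower. Over all loci 5.25% and 5.85% were called, so these counts were near the background. NPC1, which exports cholesterol from the lysosome, had 97 fragments in the HT-29 control and 408 with SCS, a change of 1.81 (1.52 to 2.18). It was the highest of the 23 other membrane and lipid genes, of which 22 were compared, 4 called higher and 1 lower (3 and 1 after GC subtraction). The lowest, CLN6, had 166 and 98 fragments, a change of -0.97, at a locus shared with other genes.

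Of the 10 genes for pump assembly, 4 were called higher in HT-29 and 1 lower, and 2 and 1 after GC subtraction. NCOA7, a binding partner of the pump, was highest, with 31 and 75 fragments and a change of 0.98 (0.42 to 1.70), and VMA21, an assembly factor of V0, was lowest, with 127 and 77 fragments and a change of -0.93 (-1.38 to -0.53). Of the other pump subunits, 5 of 9 were compared, with 1 called higher and 2 lower. The gene called higher was ATP6V0D2, a d subunit of V0, with 0 fragments in the HT-29 control and 20 with SCS. Set against a floor of 3 fragments it was 5.68-fold higher, and the lower end of its counting interval was 2.07 on the log2 scale. TCIRG1, an a subunit at a locus shared with another gene, was highest at 5 CPM or more, with 39 and 55 fragments and a change of 0.25 (-0.35 to 0.89) that was not called, and ATP6V0E2, a paralogue of ATP6V0E1, was lowest at 55 and 14 fragments, a change of -1.99 (-3.17 to -1.34). Among regulators and mTORC1 docking genes, 3 of 18 compared were called higher and 1 lower in HT-29, a share of higher calls close to the 16.8% of all loci, and 1 and 1 were called after GC subtraction. LAMTOR2, part of the scaffold that anchors mTORC1, was lowest with 42 and 24 fragments and a change of -0.95, and SLC38A9, an arginine sensor, had the highest value at 8 and 20 fragments, 0.89 (-0.16 to 2.48), which was not called. TFEB itself had 16 and 9 fragments and was not called, and TFE3 had 84 and 155 fragments, a change of 0.64, and was called higher.

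Among genes of mannose phosphate tagging and sorting, 3 of 10 were called higher and 1 lower in HT-29, and 1 and 1 after GC subtraction. GNPTAB, which makes the mannose phosphate tag, was highest with 24 and 51 fragments and a change of 0.79 (0.13 to 1.62) that became 0.64 (-0.02 to 1.47) and was then not called, and SORT1, the sortilin receptor, was lowest with 162 and 115 fragments and a change of -0.71 (-1.08 to -0.37). In NCM460 with the GC trend subtracted, TMEM192, a lysosomal membrane protein, had 2 and 22 fragments, a change of 1.70 with a counting interval of 0.17 to 5.32. It had 18 and 57 fragments in HT-29, where it was also called higher. RPTOR, a subunit of mTORC1, had 78 and 36 fragments in NCM460 and a change of -0.93 (-1.58 to -0.38), and CLN6 had 24 and 21 fragments and a change of -1.06 (-2.01 to -0.18). TFEB, TFE3 and ATP6V0D2 were named after their values were seen.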

How the data were processed

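RNA-seq was analysed from 4 libraries (1 per condition), mapped to groups by the submitters' labels. The authors deposited one table with a count column, in which fragment counts had been divided by a size factor (a signal that is not whole), and an FPKM column per library. The paper names Cuffdiff, and the submitters' processing notes list cutadapt 1.9.1, Bowtie2, HTSeq 0.6.1 and hg19, whereas the table's coordinates are those of GRCh38 (93.5% of matched loci had the same coordinates in GENCODE release 29). The design had assumed counts. Each column was divided by what a single fragment is worth in it, after which 99.7% to 99.9% of values were whole within 0.01. The 26 rows without a gene name held at most 0.0352% and were left out, and identical adjacent rows were merged. Fragments were scaled by edgeR 4.0.16 TMM factors, with a prior count of 2, and intervals are Clopper-Pearson (SciPy 1.17.1). The floor of 3 fragments was 1.25 to 3.85 CPM. GC trends were lowess fits (span 0.3). The change shared by both lines was fitted on the recovered fragments by edgeR (9 loci called) and DESeq2 1.42.0 (27), with Benjamini-Hochberg adjustment. Every gene of the list was described, and from each list of other genes the highest and lowest with a mean of 5 CPM or more in HT-29, and in NCM460 those of them called after GC subtraction. The list, the other lists and the comparisons were chosen with earlier results of these data known. Scripts were tested on simulated data.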

Additional observations from a re-analysis of the deposited data

Results flagged for a closer look

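For 3 genes the change with SCS was called in opposite directions in the 2 lines, and the difference between the lines was not tested. The share of all loci called in opposite directions was not counted. ATP6V0B had a log2 fold change of 0.62 in HT-29 and -1.004 in NCM460, ATP6V1A of -0.62 and 1.62, and GAA of 1.60 and -0.99. With the GC trend subtracted, none of the 3 was called in NCM460.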

How the results depend on the processing

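The 14 calls in HT-29, where 31.55% of all loci were called, ranged from 13 to 20 under the alternatives. The medians of the pump and the hydrolases stayed above 0. The 20 calls came with total counts only, which called 33.7% of all loci and gave them a median of 0.31. From the deposited FPKM values, by the fold alone, 17 genes and 52.1% of all loci were called. The share called in either direction was thus not above the background there. By direction, 14 of the 35 genes were called higher and 3 lower, against 28.3% and 23.8% of loci. In NCM460 the 18 calls became 3 with the GC trend subtracted, where the share of all loci called went from 29.2% to 11.1%. The split of higher and lower calls was 8 and 10, against 15.4% and 13.8% of loci. It was 11 and 1 with total counts only, against 32.6% and 2.05% of loci. With DESeq2's size factors it was 5 and 13 (13.2% and 16.2% of loci). With fragments thinned to equal depth it was 6 and 12 (13.3% and 12.5%). Total counts only moved the median of all loci by 0.25 in HT-29, 0.54 in NCM460 and 0.94 between the untreated lines, where the 12 higher and 10 lower calls became 23 and 2. The shares of all loci called higher and lower there went from 25.3% and 23.1% to 50.7% and 8.87%. The NCM460 median of the pump, 0.07, was -0.023 with DESeq2's size factors, -0.21 with the GC trend subtracted, -0.11 with an expression trend subtracted and -0.17 from the deposited FPKM values. The NCM460 median of the hydrolases, -0.42, was 0.25 with total counts only. The 9 loci with a shared change became 27 with DESeq2, 17 when scaled by total counts alone and 62 with a GC offset. Of the 35 genes, called or not, up to 4 changed sign under an alternative in HT-29, up to 12 in NCM460 (with the GC trend subtracted) and up to 9 between the untreated lines (with total counts only). Among called genes the sign changed for no gene in HT-29 and, in NCM460, for ATP6AP2 (-0.076) and LAMP2 (-0.38) with the GC trend subtracted and IGF2R (0.10) with total counts only. Among called genes between the untreated lines it changed for ATP6V0A1 (0.19), ATP6V0B (0.13), ATP6V1H (0.11) and GRN (0.36) with total counts only, GRN again (0.24) after GC subtraction and IGF2R (-0.24) from FPKM. The cause of these moves was not tested. Within a line no paired analysis was possible because each condition has 1 library and the labels pair none, and leaving out a library would leave no comparison. The shared fit, with the cell line as a term, is the one analysis that sets SCS against control across both lines, paired by line. Depth limits genes such as GLA and SMPD1, with 3 to 30 fragments per library.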
